A study of Mus musculus with 37 samples.

Results

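The 7 genes described here are the squamous and suprabasal keratins Krt6a, Krt6b, Krt16, Krt4, Krt13, Krt1 and Krt10, taken by their symbols from the 24421 gene symbols of the count table. The table holds 52 symbols of the form Krt and a number, so these are 7 of 52. All 7 had counts in all 5 groups and passed the filter on low counts in each main fit. Some fits of fewer libraries left out Krt6b and Krt16 (U against B) or Krt6b and Krt1 (UN against U), which had too few counts there. Levels are per-million counts (CPM), the count of a gene scaled by the total of its library, and they were followed over all 37 libraries.

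Keratins are the filament proteins of epithelial cells, and each filament is built from a type I and a type II chain. The usual partners are Krt6a or Krt6b with Krt16, Krt4 with Krt13, and Krt1 with Krt10. Krt6 and Krt16 are known from hair follicles, the oral lining and wounded or rapidly dividing epidermis. Krt4 and Krt13 belong to the upper layers of moist squamous linings such as the oesophagus, and Krt1 and Krt10 to the upper layers of cornifying epidermis. The urothelium, the lining of the ureter and bladder, instead carries Krt5 in its basal cells, simple keratins such as Krt7, Krt8, Krt18 and Krt19, and uroplakins on its surface.

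Total RNA was sequenced from the urinary tract of wild-type female BALB/c mice that drank water with or without N-butyl-N-(4-hydroxybutyl) nitrosamine (BBN), a bladder carcinogen, for 18 weeks. BBN was started at 6 to 7 weeks of age, and untreated mice had tap water. In BBN-treated mice UT was upper urinary tract from the side with cancer (11 libraries of 10 mice, both sides of mouse 5) and UN that from the side without (7 libraries of 7 mice, all of which also gave a UT library). U was the ureter of untreated mice (6 libraries, both ureters of 3 mice), B their bladder (3 libraries) and BB the bladder of BBN-treated mice (9 libraries). A further bladder, BT 6, carries the letter T in its library name where the BB names carry N, while its title says only that it is a bladder, so it was kept out of the main comparisons. The labels give no histology for the bladders, and the tissue pieces were whole, not sorted for urothelium.

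Library totals were 3557697 to 18793560 counts. The lowest were BB 3 (3557697), UN 6 (4675081), BB 1 (6335556) and BB 4 (7820510), and the 10 most abundant genes took 21.5% to 35.5% of the counts in these 4 against 5.07% to 17.5% in the others. Epcam, Cdh1, Cldn4, Cldn7, Esrp1, Grhl2 and Elf3, markers of epithelial cells, summed to 188 to 369 CPM in U, 8.50 to 1813 in UN, 369.9 to 4087 in UT, 1519 to 1728 in B and 225 to 4232 in BB. The lowest sum was that of UN 2, which therefore held little epithelial RNA. In whole tissue, fewer cells of a type and less RNA per cell cannot be told apart. Acta2, Tagln and the other 6 smooth muscle markers were present in all groups. Adipocyte markers such as Fabp4 were highest in U, with a summed mean of 21606 ± 3756 CPM (SD, n = 6) against 714 ± 449 in B (SD, n = 3).

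The genes lie in the 2 mouse keratin clusters, all on the minus strand of GRCm38. The type II genes are on chromosome 15, namely Krt6b (101676023 to 101680287), Krt6a (101689910 to 101694307), Krt1 (101845426 to 101850794) and Krt4 (101918535 to 101924735). The type I genes are on chromosome 11, namely Krt10 (99385254 to 99389364), Krt13 (100117327 to 100121566) and Krt16 (100246091 to 100248902). Their longest coding transcripts in GENCODE vM21 have 8 exons in the type I and 9 in the type II genes and are 1565 to 2455 bases long. Krt6a and Krt6b are neighbours and near copies. Their coding sequences, 1659 and 1662 bases without the stop codon, were identical at 97.6% of the 1662 aligned positions. Their longest stretch without a difference was 280 bases. The 60-base coding window with the most differences between them is shown, where reads of these genes are best told apart. It lies at positions 817 to 876 counted from the A of the start codon in both. Capitals mark the 10 positions that differ.
Krt6a: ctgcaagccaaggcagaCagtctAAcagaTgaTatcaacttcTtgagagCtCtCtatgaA
Krt6b: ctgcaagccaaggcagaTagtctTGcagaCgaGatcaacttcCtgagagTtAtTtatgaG

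Of all 100-base stretches, the length of a read, 34.0% of the Krt6a and 30.6% of the Krt6b transcript also occur in a transcript of another gene, each other's first of all. For Krt16 the share was 24.3%, through Krt14 and the annotated gene Gm11597. Krt1, Krt10, Krt13 and Krt4 shared none. The division of reads between Krt6a and Krt6b is therefore uncertain, and the sequence shared is a limit on every value of either gene.

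Promoter sequences were given for Krt13 and Krt10 among the 7 genes (RefSeq, GRCm38.p6). They are printed so that the letters upstream of a mucosal and an epidermal keratin can be read side by side. Each line holds the 250 bases before the start of the gene, 5′ to 3′ on the minus strand, at chr11:100121567-100121816 for Krt13 and chr11:99389365-99389614 for Krt10. Capitals mark matches to TATAAA, the core of the TATA box, or TGANTCA, searched on both strands. TGANTCA is a looser pattern that includes the AP-1 sites TGACTCA and TGAGTCA.
Krt13: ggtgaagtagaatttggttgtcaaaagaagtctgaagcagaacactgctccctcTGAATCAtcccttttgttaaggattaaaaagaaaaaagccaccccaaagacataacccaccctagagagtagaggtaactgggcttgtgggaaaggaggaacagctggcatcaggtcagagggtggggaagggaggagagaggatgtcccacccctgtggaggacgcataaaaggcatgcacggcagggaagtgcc
Krt10: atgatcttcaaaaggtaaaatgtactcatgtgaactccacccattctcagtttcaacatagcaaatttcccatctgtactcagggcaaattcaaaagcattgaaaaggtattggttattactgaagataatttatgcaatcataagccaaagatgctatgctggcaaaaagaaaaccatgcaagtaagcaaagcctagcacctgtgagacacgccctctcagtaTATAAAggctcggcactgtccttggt

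The Krt10 window held 1 TATAAA, beginning at position -26 from the start, and the Krt13 window 1 TGANTCA, beginning at position -196. That Krt13 match reads TGAATCA and is neither of the AP-1 sites named. The table lists a further transcript start of Krt13, whose window at chr11:100120578-100120827 held 2 TGANTCA, both reading TGACTCA. Of 32851 promoters of this length, 12.4% held TATAAA and 6.75% held TGANTCA. The matches are a description of these letters only.

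In untreated tissue the 7 keratins were scarce, and the most abundant per length was Krt10. Per kilobase of transcript, Krt10 reached 2.74 ± 0.682 CPM in U (SD, n = 6) and made 44.3% of the summed level of the 7 genes. In B it reached 6.15 ± 0.482 (SD, n = 3) and made 33.1%. Krt4 and Krt6a followed in both organs. After BBN the order changed, with Krt4 first and Krt6a next in UN, UT and BB, and Krt10 6th of 7 in each of these groups. Krt10 then made 2.81% of the sum in UN, 1.54% in UT and 1.86% in BB, and Krt4 made 36.9%, 48.0% and 57.1%. These shares compare mean levels per length and carry no test. The UN means rest on UN 3 and UN 7, and the libraries of UN were not alike. Krt10 was still the first of the 7 per length in UN 2 (58.7% of the sum) and UN 6 (35.2%), as in every U and B library, and came second in UN 4 and UN 9. It was 6th in 10 of 11 UT libraries.

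**Figure D1:**
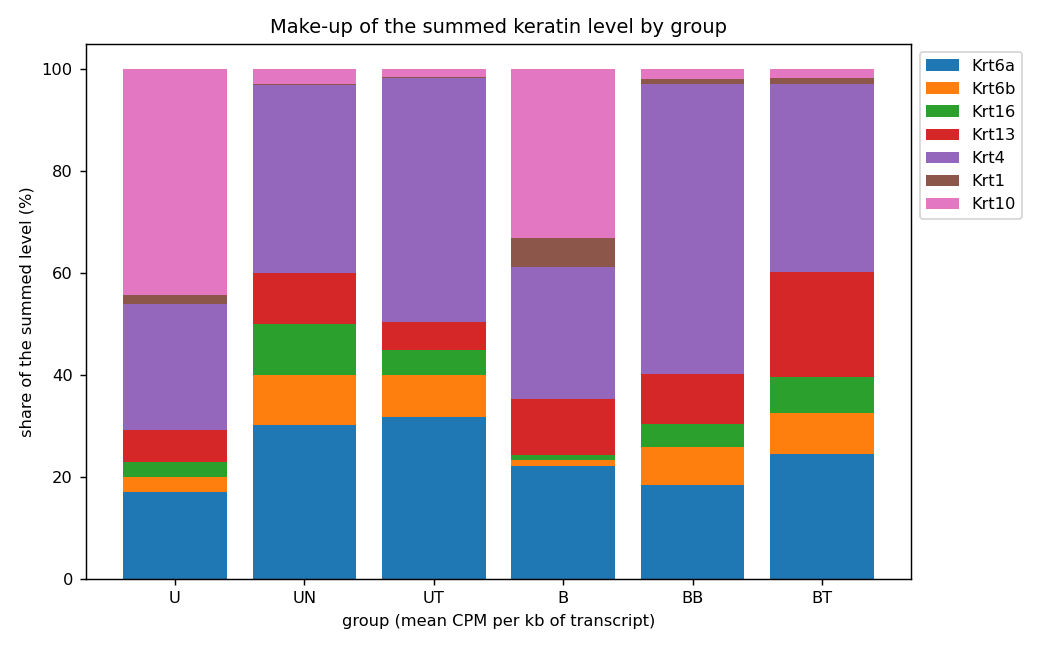
Share of each keratin in the summed mean level of the 7 genes (CPM per kilobase of transcript, in percent) for each group and for library BT 6. Krt10 makes 44.3% of the sum in U and 33.1% in B, and 1.54% to 2.81% in UN, UT and BB, where Krt4 makes the largest share. The UN bar is carried by UN 3 and UN 7, and Krt10 makes 58.7% in UN 2.

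The first question was which of these keratins differed between BBN-treated and untreated ureter. UT libraries had far more Krt6a, Krt6b, Krt16, Krt4 and Krt13 than untreated ureter, and somewhat more Krt1 and Krt10. All 7 were called higher in UT than in U, and 6 of 7, all but Krt10, in UN than in U. With mouse as a random effect in limma, Krt6a, Krt1 and Krt13 lost the call in UN. A gene was called at an adjusted p under 0.1 over all genes tested and a difference of at least 2-fold, with edgeR's quasi-likelihood test. Of 15658 genes tested, 18.7% were called higher in UT against U and 12.5% in UN against U.

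**Figure D2:**
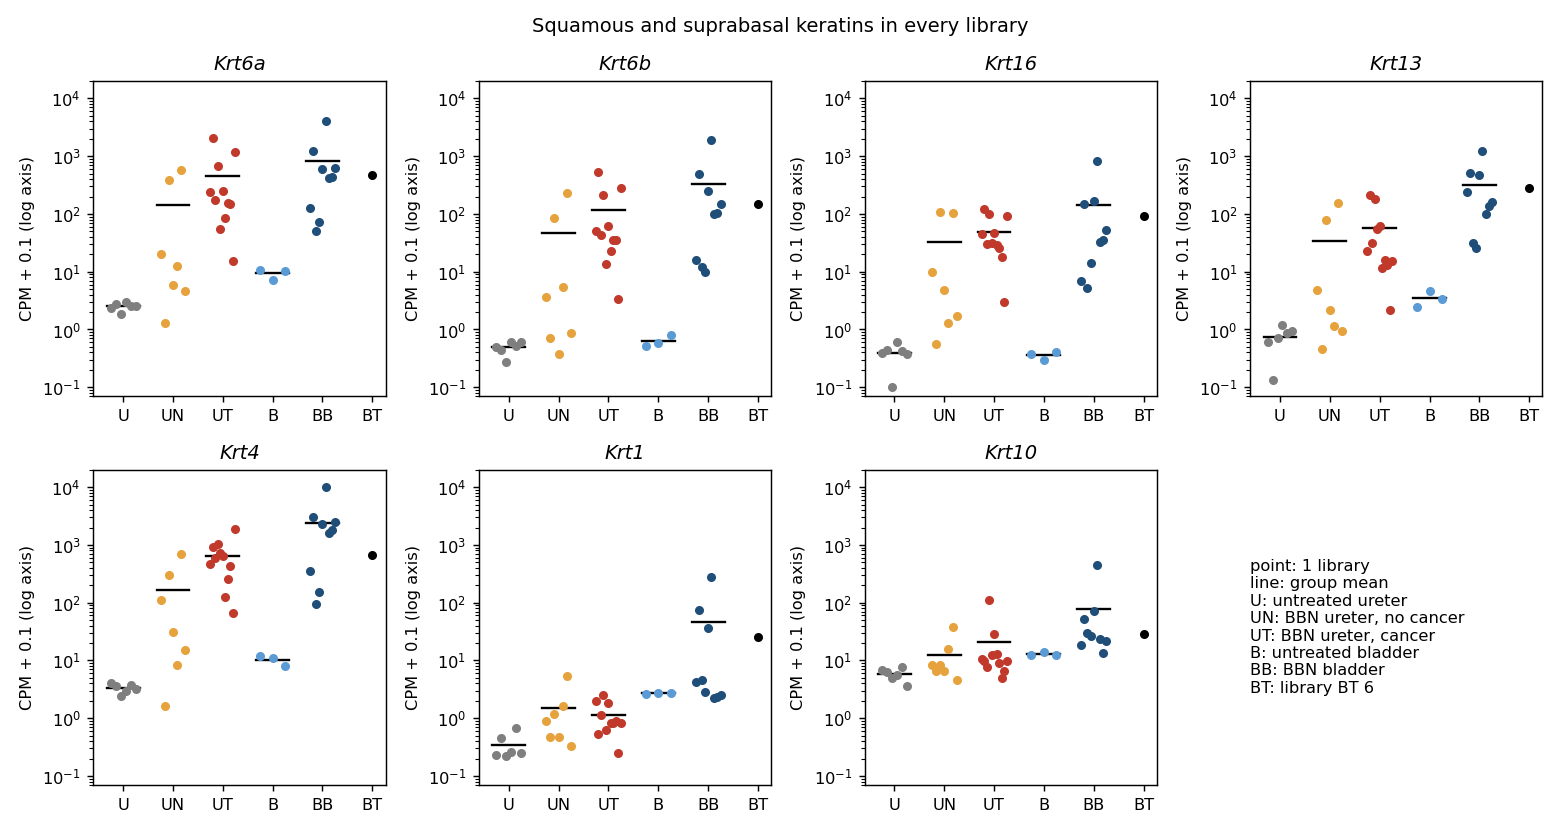
CPM + 0.1 of each keratin in every library, on a log axis. Points are libraries and lines are group means. For Krt6a, Krt6b, Krt16, Krt13 and Krt4 all UT libraries lie above all U libraries and all BB libraries above all B libraries. UN spreads over both ranges, and Krt1 is above 25 CPM in BB 2, BB 5, BB 7 and BT 6.

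Krt6a, the type II keratin of wounded epidermis, was 1.73 to 2.86 CPM in U with a median of 2.46. It was 1.17 to 582 CPM in UN with a median of 12.5, and 15.3 to 2030 CPM in UT with a median of 178. All UT libraries lay above all U libraries, whereas UN reached from below U (UN 2) to the upper part of UT (UN 3 and UN 7). The log2 difference from U was 7.31 ± 1.43 (standard error) in UT, with an edgeR adjusted p of 0.000434. In UN it was 5.66 ± 1.35, with an edgeR adjusted p of 0.00903.

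Krt6b, its near copy, was 0.175 to 0.505 CPM in U with a median of 0.413. It was 0.274 to 226 CPM in UN, with a median of 3.53, and 3.21 to 541 CPM in UT, with a median of 42.4. The groups again did not overlap between UT and U. The log2 difference from U was 7.98 ± 1.60 in UT (edgeR adjusted p = 0.000502) and 6.59 ± 1.54 in UN (edgeR adjusted p = 0.00803). Per length, Krt6b made a median of 19.6% of the 2 genes' sum in UT, between 17.6% and 24.1%. In UN the same share ran from 4.64% to 35.2%, where several libraries had few counts.

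Krt16, the type I partner of Krt6, was listed at 0 in U 2L and at 0.270 to 0.505 CPM in the other 5 U libraries, the last from 9.5 estimated counts. It was 0.457 to 108 CPM in UN, with a median of 4.79, and 2.86 to 120 CPM in UT, with a median of 30.9. UN 3 (108 CPM) and UN 7 (106 CPM) stood close to the highest UT library, and the other 5 UN libraries were at 9.68 CPM or less. The log2 difference from U was 7.06 ± 1.22 in UT (edgeR adjusted p = 0.000164) and 6.56 ± 1.22 in UN (edgeR adjusted p = 0.00187).

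Krt4, the type II keratin of oesophageal upper layers, was 2.35 to 3.95 CPM in U with a median of 3.32. It was 1.55 to 689 CPM in UN, with a median of 31.6, and 66.3 to 1863 CPM in UT, with a median of 587. No UT library was near the U range. The log2 difference from U was 7.34 ± 1.10 in UT (edgeR adjusted p = 5.25e-05) and 5.38 ± 1.02 in UN (edgeR adjusted p = 0.00213).

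Krt13, the type I partner of Krt4, was 0.0348 to 1.12 CPM in U with a median of 0.700. It was 0.366 to 153 CPM in UN, with a median of 2.05, and 2.09 to 214 CPM in UT, with a median of 22.4. UN 2, UN 6 and UN 9 lay within the U range. The log2 difference from U was 6.15 ± 1.38 in UT (edgeR adjusted p = 0.00127) and 5.44 ± 1.37 in UN (edgeR adjusted p = 0.0123). The ratio of Krt4 to Krt13 per length was not fixed, with a median of 12.8 in UT and a range of 3.32 (UT 2) to 94.8 (UT 10).

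Krt1, the type II keratin of cornifying epidermis, stayed low in all ureters. It was 0.124 to 0.586 CPM in U, 0.225 to 5.38 CPM in UN and 0.147 to 2.46 CPM in UT, with medians of 0.157, 0.803 and 0.741. The UN and UT ranges overlapped that of U. The log2 difference from U was 1.70 ± 0.65 in UT (edgeR adjusted p = 0.0358) and 2.28 ± 0.70 in UN (edgeR adjusted p = 0.0322). Without UN 7, the highest UN library, the UN difference was 1.52 with an edgeR adjusted p of 0.137.

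Krt10, the partner of Krt1, was 3.54 to 7.55 CPM in U, 4.42 to 37.3 CPM in UN and 4.81 to 113 CPM in UT, with medians of 5.86, 8.11 and 9.59. UT 4 (113 CPM) stood well above the next UT library, UT 5R (28.5 CPM). The log2 difference from U was 1.51 ± 0.61 in UT, with an edgeR adjusted p of 0.0474. Without UT 4 it was 0.67 with an edgeR adjusted p of 0.181. It was also not called with mouse as a random effect (0.85, limma adjusted p = 0.202) or with limma-trend (0.86, adjusted p = 0.162). In UN the log2 difference of 1.05 ± 0.64 was not called (edgeR adjusted p = 0.282).

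Counted by library, 7 of 11 UT libraries exceeded the highest U library in all 7 keratins, and UT 9, the lowest UT library, did so in 5. In UN, UN 1, UN 3 and UN 7 exceeded U in all 7, UN 6 in 6, UN 4 and UN 9 in 4 and UN 2 in Krt6b alone. The share of all genes that a single library had above U was not counted, so these counts only describe the libraries. The 5 genes Krt6a, Krt6b, Krt16, Krt4 and Krt13 separated every UT library from every U library, which 14.9% of the genes tested did. None of the 7 separated every UN from every U library, against 2.09% of the genes tested. The 6 U libraries came from 3 mice. With mouse as a random effect in limma, 3 of 7 keratins (Krt16, Krt6b and Krt4) were called higher in UN than in U, and Krt6a (adjusted p = 0.107), Krt1 (adjusted p = 0.107) and Krt13 (adjusted p = 0.122) were not.

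Markers of other cell types moved with these differences. All 7 epithelial markers were called higher in UT than in U, and 3 of 7 (Elf3, Cldn7 and Epcam) in UN than in U. In UT against U, 6 of 8 smooth muscle and 6 of 6 adipocyte markers were called lower, where 12.3% of the genes tested were, and all 5 kidney tubule markers that were tested were called higher. The kidney markers rested largely on UT 4, where all 8 of the list summed to 2690 CPM against a UT median of 4.48. The part of these markers in the keratin differences was not tested. Relative to the summed epithelial markers of the same library, the 7 keratins together came to 3.49% to 6.70% in U, 5.70% to 129.7% in UN and 21.4% to 118% in UT. The UN maximum was that of UN 2, where the keratins summed to 11 CPM, within the U range, and the epithelial markers to 8.50 CPM. The lowest UT library was above all U libraries on this relative scale as well. Krt10 and Krt1 alone were not. Krt10 had a median of 2.0% of the epithelial markers in U (1.14% to 3.19%) and 0.516% in UT (0.233% to 5.70%). Krt1 had medians of 0.0596% in U and 0.0550% in UT. Relative to the summed basal keratins Krt5, Krt14, Krt15 and Krt17, the ranges of the 7 keratins together overlapped. They were 7.70% to 11.9% in U and 9.63% to 54.5% in UT. On that scale Krt16 and Krt4 were higher in all UT than in all U libraries. Krt6a, Krt6b and Krt13 overlapped, and Krt1 and Krt10 were lower in all UT than in all U libraries.

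Other genes of stratified squamous epithelium were tested in the same fit. The basal keratins Krt5, Krt14, Krt15 and Krt17, partners of the undifferentiated layer, were called higher in 4 of 4 in both UN and UT against U. Krt14 had a log2 difference of 7.50 ± 1.11 in UT and 6.45 ± 1.07 in UN. Of 22 tested genes of the cornified envelope, the protein shell of dying squamous cells, 16 were called higher in UN against U. That number was 5 with limma-trend or with mouse as a random effect, and 6 of 19 without UN 7. In UT against U 16 were called higher and 1, Tgm3, lower. The abundant members Sprr2a1, Sprr2a2 and Sprr2a3 had log2 differences of 2.34 to 2.77 in UT. Sprr2a1 and Sprr2a2 had the same log2 difference in every comparison, so that their reads may not be separable. Sprr1a (0.03 ± 0.55, UT against U) and Ivl (0.44 ± 0.58), which encodes the envelope protein involucrin, were not called.

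Desmosome genes of stratified epithelium, whose products join the cells, were called higher in 9 of 9 in UT and 6 of 9 in UN against U. Of 14 tested regulators of squamous differentiation, 11 were called higher in UT and 7 in UN. Of 3 other suprabasal keratins tested, Krt78 and Krt80 were called higher in both. Trp63, which encodes the basal cell factor p63, was not among the regulators called, with a log2 difference of 0.78 ± 0.51 in UT. Of 6 simple keratins, Krt7, Krt8, Krt19 and Krt23 were called higher in UT and Krt20 lower. Of 5 uroplakins, 3 were called lower in UT (Upk1a, Upk2 and Upk3b) and 1 in UN (Upk1a), where 1.21% of the genes tested were called lower. The median log2 difference over all genes tested was 0.11 in UT and 0.13 in UN, against 7.06 and 5.44 over the 7 keratins.

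The next question was whether the cancerous side differed from the other side of BBN-treated mice. The mean CPM was higher in UT than in UN for 6 of 7 keratins, but none was called with edgeR. At an unadjusted p under 0.05, 1 of 7 (Krt4) passed, where 3969 of 15658 genes tested did. In this comparison 1.32% of the genes tested were called higher. That count of 206 genes ran from 4 (without UT 5L) to 614 (without UN 7) when single libraries were left out. Krt4 had a log2 difference of 1.97 ± 0.77 (edgeR adjusted p = 0.126), Krt6a 1.65 ± 0.98 (0.285), Krt6b 1.39 ± 1.01 (0.382), Krt13 0.71 ± 0.94 (0.642), Krt16 0.50 ± 0.77 (0.698), Krt10 0.47 ± 0.55 (0.601) and Krt1 -0.58 ± 0.54 (0.501). UN libraries themselves spread widely, for Krt4 444-fold from lowest to highest.

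Krt4 was near the threshold. It was called with DESeq2 (adjusted p = 0.0398), with limma-trend and with mouse as a random effect, and not with mouse as a replicate block in edgeR. It was also called without UN 3, without UN 7 or without UT 9, and without UN 7 Krt6b was called too, with a log2 difference of 2.65 (edgeR adjusted p = 0.0997). Krt6a is in the study's own list of genes that differ between UT and UN, which was chosen on these libraries. With the RNA integrity number as a covariate, the log2 differences of Krt6b, Krt16 and Krt13 were below 0, at -0.28, -0.89 and -1.18.

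Within mice the picture was divided. Both sides were sequenced in mice 1, 2, 3, 4, 6, 7 and 9. Krt6a, Krt6b, Krt16 and Krt13 were higher on the cancerous side in 5 of 7 mice and lower in mice 3 and 7, whose UN libraries were the highest of their group. Krt4 was higher in 6 of 7 and lower in mouse 7. Krt10 was higher in 4 of 7 and Krt1 in 3 of 7. The widest gap was that of mouse 2, where Krt6a was 1.17 CPM in UN and 2030 CPM in UT. UN 2 was also the library with the fewest epithelial markers, at 8.50 CPM against 4087 CPM in UT 2. In mouse 3, whose 2 sides had 1739 and 2194 CPM of these markers, Krt6a was 388 CPM in UN and 178 CPM in UT.

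**Figure D3:**
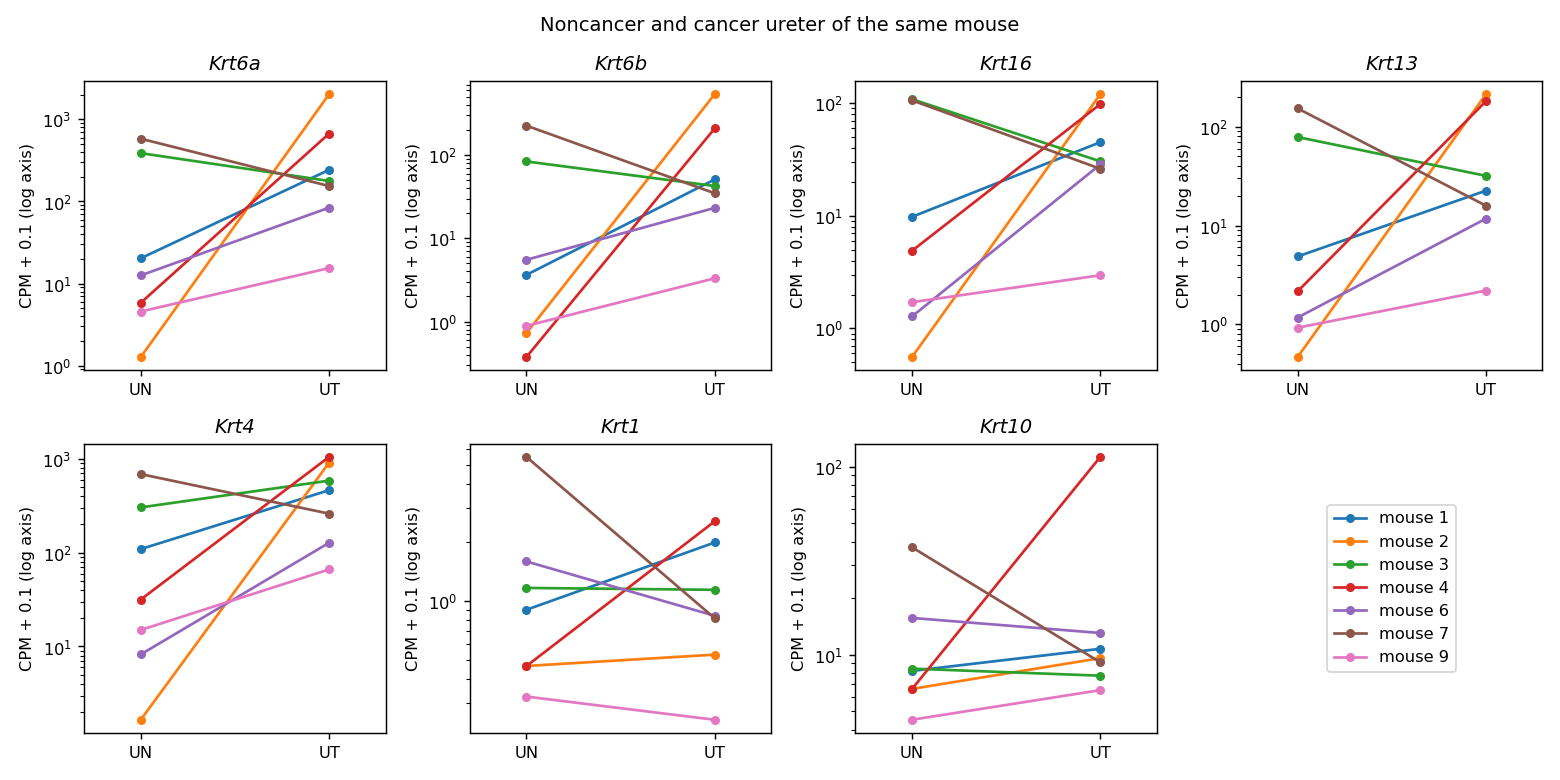
CPM + 0.1 of each keratin on the side without cancer (UN) and the cancerous side (UT) of the 7 mice with both libraries, on log axes that differ between panels. Lines join the sides of 1 mouse. Krt6a, Krt6b, Krt16 and Krt13 fall from UN to UT in mice 3 and 7 and rise in the other 5.

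Other squamous genes were compared between the groups in the same fit. None of the 4 basal keratins, 22 cornified envelope genes or 9 desmosome genes was called in UT against UN with edgeR, with 0, 1 and 1 at an unadjusted p under 0.05. Of 14 regulators 1 was called higher, namely Sox2, and of 5 uroplakins 1 was called lower, Upk1a (log2 difference -1.88 ± 0.65). Of 8 smooth muscle markers 5 were called lower (Lmod1, Myh11, Acta2, Actg2 and Tagln), where 4.20% of the genes tested were. With edgeR on both groups alone or with the RNA integrity number as a covariate, no gene was called in either direction (2806 and 885 at an unadjusted p under 0.05), so these calls of Sox2, Upk1a and smooth muscle genes were lost. Smooth muscle markers called lower ran from 0 to 7 of 8 when single libraries were left out, with 0 without UN 1, UN 2, UN 6, UT 2, UT 5L, UT 5R or UT 10.

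The bladder of the same mice was then compared with untreated bladder. BB had far more Krt6a, Krt6b, Krt16, Krt4 and Krt13 than B, and these 5 were called higher. Of 17984 genes tested, 7.08% were called higher. That count of 1274 fell to 518, 530 and 527 without B 1, B 2 and B 3. The same 5 genes separated every BB from every B library, which 5.50% of the genes tested did. Krt1 and Krt10 had higher means that were not called.

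Krt4 was 11.7, 11.1 and 7.98 CPM in B 1, B 2 and B 3 and 93.0 to 10043 CPM in BB, with a median of 1815. The log2 difference was 7.96 ± 1.51 (edgeR adjusted p = 0.00460). Krt13 was 2.35, 4.60 and 3.31 CPM in B and 26 to 1209 CPM in BB, with a median of 162. All BB libraries exceeded all B libraries in both, and the log2 difference of Krt13 was 6.70 ± 1.27 (edgeR adjusted p = 0.00451). The median ratio of Krt4 to Krt13 per length was 4.57 in BB and 1.87 in B.

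Krt6a was 10.7, 7.19 and 10.1 CPM in B and 51.2 to 3993 CPM in BB, with a median of 437. The log2 difference was 6.57 ± 1.41 (edgeR adjusted p = 0.00966). Krt6b was 0.418, 0.494 and 0.692 CPM in B, below 1 in each, and 9.89 to 1894 CPM in BB, with a median of 106. Its log2 difference was 9.32 ± 2.05 (edgeR adjusted p = 0.0110). Krt16 was 0.279, 0.200 and 0.301 CPM in B and 5.20 to 810 CPM in BB, with a median of 34.8, a log2 difference of 9.11 ± 1.97 (edgeR adjusted p = 0.0104). The 3 genes of the Krt6 and Krt16 pair were therefore all apart from B, and their 3 lowest BB libraries were BB 1, BB 3 and BB 4, which also had few epithelial markers.

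Krt1 split the BBN bladders. It was 2.51, 2.66 and 2.59 CPM in B, and in BB it was 283 CPM in BB 7, 74.8 in BB 2 and 36.8 in BB 5. In the other 6 BB libraries it was 2.12 to 4.50 CPM, at or near the B level, and in BB 8, BB 9 and BB 10 below all B libraries. The log2 difference was 4.24 ± 1.77 and was not called (edgeR adjusted p = 0.150). Krt10 was 12.3, 14.1 and 12.3 CPM in B and 13.5 to 444 CPM in BB, with a median of 26.1. The highest were again BB 7 (444 CPM), BB 5 (71.5 CPM) and BB 2 (52.3 CPM), and 8 of 9 BB libraries exceeded all B libraries. The log2 difference of 2.79 ± 1.09 was not called (edgeR adjusted p = 0.131).

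Both Krt1 and Krt10 were called with DESeq2 (adjusted p of 0.0254 and 0.00828), without the 3 BB libraries of RNA integrity number under 5 (BB 1, BB 3 and BB 4) and with only the libraries whose code lies in the earlier of 2 ranges. Krt10 was also called without BB 7, where its log2 difference was 1.67 (edgeR adjusted p = 0.0536). The ratio of Krt1 to Krt10 per length had a median of 0.138 in BB and rose to 1.22 in BB 2. In UT it was 0.0186 to 0.152.

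BB 7 was the highest BB library for every one of the 7 keratins, with 18676 CPM in all against a BB median of 2547 and a low of 227 in BB 3. Without BB 7 the mean of Krt4 was 1486 ± 1147 CPM (SD, n = 8) in place of 2436 ± 3048 (SD, n = 9), and that of Krt1 16.2 ± 26.5 in place of 45.9 ± 92.4. The 5 keratins stayed called without it. Epithelial markers were not called in BB against B in any of 7, with 1 at an unadjusted p under 0.05. Smooth muscle markers were also not called in any of 8, though 7 were lower at an unadjusted p under 0.05, such as Des (-1.52 ± 0.55). Their sums, 9289 to 11153 CPM in B and 1011 to 7447 CPM in BB, did not overlap, and their part in the keratin differences was not tested. Relative to the summed epithelial markers the 7 keratins came to 2.16% to 2.65% in B and 58.4% to 548% in BB. The 3 libraries of RNA integrity number under 5 had few epithelial markers, 225 to 409.6 CPM, and their keratin sums, 227 to 761 CPM, were the lowest 3 of BB.

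Of the other squamous genes in bladder, 2 of 4 basal keratins were called higher (Krt14 and Krt17), with log2 differences of 8.0 and 8.39. Of 35 tested cornified envelope genes 25 were called higher, among them Lor, which encodes loricrin (4.20 ± 1.12). All 5 uroplakins were called lower, where 5.47% of the genes tested were, from -2.93 ± 0.46 for Upk1b to -6.27 ± 0.75 for Upk1a. The 984 genes called lower fell to 479, 508 and 501 without B 1, B 2 and B 3. Desmosome genes were called higher in 6 of 12, regulators in 6 of 15 and other suprabasal keratins in 1 of 5 (Krt84). Of 6 simple keratins Krt23 was called higher and Krt18 lower. The median log2 difference over all genes was 0.23, against 6.70 over the 7 keratins. Hair follicle genes were searched as a check on skin and hair, and their 14 symbols summed to 10.4 to 31.3 CPM in BB and 1.45 to 2.48 CPM in B, with Tchh called higher among 6 tested.

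Differences between the organs were tested in a fit of all 5 groups. In untreated tissue, all B libraries exceeded all U libraries for Krt6a, Krt1, Krt10, Krt13 and Krt4, which 39.2% of the genes tested did in that direction. Krt1 was the gene called lower in U, with a log2 difference of -3.01 ± 1.15 (edgeR adjusted p = 0.0780), where 8.82% of 18917 genes tested were called lower. The BBN groups vary more and share the estimate of spread in this fit. With mouse as a replicate block, 4 were called lower, with Krt13 at -2.07 (edgeR adjusted p = 0.00246), Krt6a at -1.55 (5.61e-05) and Krt4 at -1.28 (0.000309) beside Krt1. The same 4 were called in a fit of the U and B libraries alone. Of 15318 genes tested there, 2213 were called lower with the block and 2188 without it. Without any 1 of 8 of the 9 untreated libraries, all but U 3L, the difference of Krt1 in the fit of 5 groups was not called. Krt16 and Krt6b, below 0.7 CPM in both organs, were not called in the fit of 5 groups and had too few counts to be tested in the other two. Of the epithelial markers 6 of 7 were lower in U, and 6 of 6 adipocyte markers higher, where 6.79% of the genes tested were called higher.

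After BBN, 4 of 7 keratins were called lower in UT than in BB, where 21.5% of genes were. That background rests on BB 1, BB 3 and BB 4, the libraries of RNA integrity number under 5, without which 577 of 16903 genes were called lower in place of 4068 of 18917, while the 4 keratins stayed called and Krt16 passed too (edgeR adjusted p = 0.0866). Krt1 had the largest difference, -5.48 ± 0.79 on the log2 scale (edgeR adjusted p = 4.30e-05), with medians of 0.741 CPM in UT and 4.10 CPM in BB. It was lower in UT than in BB in 9 of 9 mice with both, with differences of -7.37 to -0.09 in log2(CPM + 1). The share of all genes lower in 9 of 9 mice was not counted. Krt13 (-2.55 ± 0.82, edgeR adjusted p = 0.0166), Krt10 (-2.07 ± 0.56, 0.00599) and Krt4 (-1.89 ± 0.68, 0.0319) were also called. Krt16 (-1.51 ± 0.76, 0.131), Krt6b (-1.45 ± 0.90, 0.238) and Krt6a (-0.83 ± 0.81, 0.479) were not. Without BB 7, Krt13 and Krt1 remained called while Krt10 (adjusted p = 0.141) and Krt4 (adjusted p = 0.187) were not, and the difference of Krt6a was 0.14. Within mice Krt13 and Krt10 were lower in UT in 8 of 9 mice, Krt4 in 6 of 9, Krt16 in 5 of 9 and Krt6a and Krt6b in 4 of 9. With mouse as a replicate block, 3 were called (Krt10, Krt13 and Krt1), and Krt4 was at -1.33 (edgeR adjusted p = 0.294). Krt4 was also not called with limma-trend (adjusted p = 0.138) or with mouse as a random effect (limma adjusted p = 0.125). Cornified envelope genes were called lower in UT in 33 of 35, and in 25 of 35 without BB 1, BB 3 and BB 4, whose summed levels of these genes (15548 to 32777 CPM) were the highest of BB. The sums of the other BB libraries, 6147 to 12391 CPM, lay within the UT range of 1589 to 14215 CPM. In the fit of all libraries, basal keratins were called lower in 0 of 4 (0 at an unadjusted p under 0.05) and epithelial markers in 0 of 7 (also 0). Over all genes, 7600 of 18917 passed that p in either direction. Smooth muscle markers were called lower in UT in 7 of 8, such as Actg2 (-3.16 ± 0.44), and adipocyte markers higher in 5 of 6, such as Plin1 (4.42 ± 1.04), where 6.78% of the genes tested were called higher, and their part in the keratin differences was not tested.

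**Figure D4:**
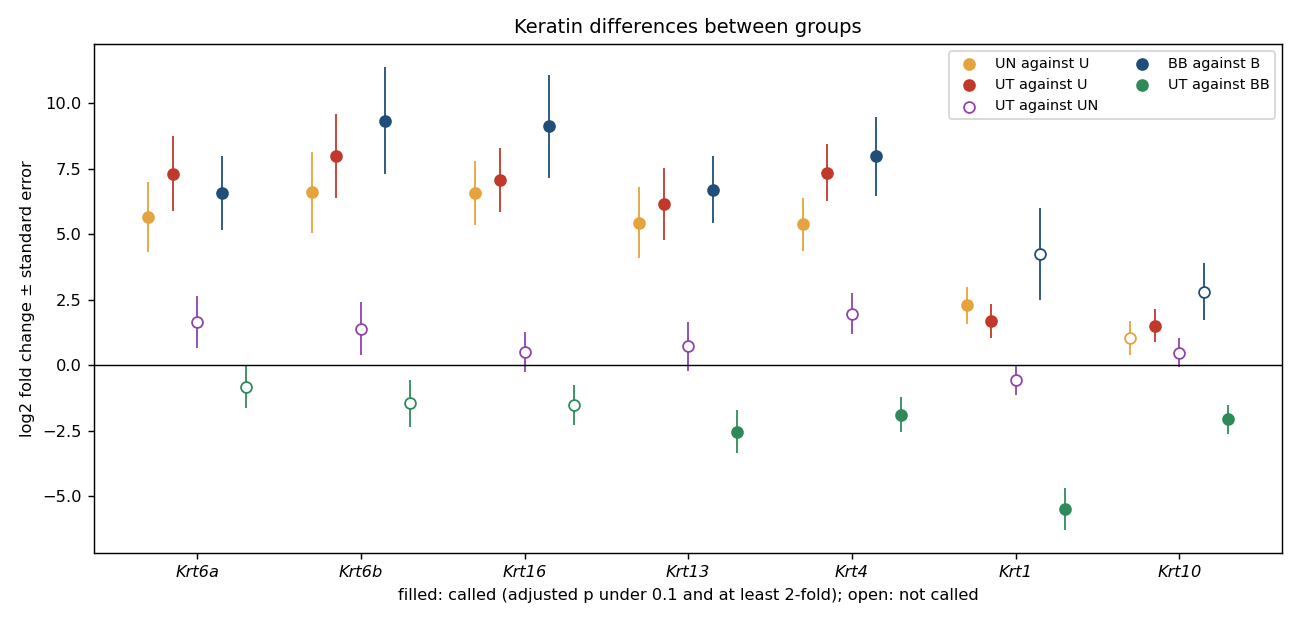
Log2 fold change ± standard error of each keratin in 5 comparisons (edgeR), with filled points for called genes and open points for the others. UT and UN against U and BB against B are far above 0 for Krt6a, Krt6b, Krt16, Krt13 and Krt4. UT against UN has open points only, and UT against BB is lowest for Krt1, at -5.48.

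The size of the BBN difference in ureter (UT against U) minus that in bladder (BB against B) was tested as an interaction. None of the 7 was called with edgeR, where 5.80% of genes tested were called higher and 7.06% lower. None passed an unadjusted p of 0.05, where 5274 of 18917 genes tested did. The differences ran from -2.47 ± 1.48 (Krt1) to 0.82 ± 1.52 (Krt6a) on the log2 scale, with adjusted p of 0.269 to 0.873. The lower UT level of Krt1 stood beside a lower level in untreated ureter.

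By mean CPM, BB was first for all 7 keratins. For Krt6a this rested on BB 7, without which the BB mean was 445 CPM against 457 CPM in UT. UT was second for Krt6a, Krt6b, Krt16, Krt10, Krt13 and Krt4, and B for Krt1. Neighbours in this order often did not differ beyond their spread (edgeR, 5 groups). BB and UT were separated for Krt10, Krt13 and Krt4 and UT and UN for none. UN was separated from the untreated group next below it for Krt6a, Krt6b, Krt4 (B, adjusted p of 0.0903, 0.0381 and 0.0394) and Krt16 (U, adjusted p = 0.00154). For Krt1, BB was separated from B in this fit (adjusted p = 0.0256), though not in the fit of bladders alone. The fit of 5 groups also called Krt10 in BB against B (adjusted p = 0.0464), and it did not call Krt1 in UT against U (adjusted p = 0.182) or in UN against U (adjusted p = 0.179). U and B were not separated where they were neighbours.

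Over the 37 libraries, which share the groups above, the levels of Krt6a, Krt6b, Krt16, Krt4 and Krt13 ran together. Pearson's r of log2(CPM + 1) was 0.897 to 0.984 among these 5, the highest being that of Krt6a and Krt6b, which share sequence. Krt1 and Krt10 had an r of 0.859 with each other and of 0.573 to 0.764 with the other 5. Among 18157 genes, the most like Krt6a were Krt6b, Krt4 (0.962) and Krt16 (0.957). The most like Krt6b were Krt6a, Krt16 (0.965) and Krt4 (0.938), and the most like Krt16 were Krt14 (0.967), Krt6b and Krt6a. Those most like Krt4 were Krt6a, Celsr1 (0.961) and Col17a1 (0.960), and those most like Krt13 were Mall (0.938), Krt6a (0.924) and Tprg (0.922). For Krt1 they were Lipn (0.927), Cldn17 (0.919) and Teddm3 (0.914), and for Krt10 Klk10 (0.896), Bpifc (0.882) and S100a7a (0.880). Depth and epithelial content also differ over these libraries.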

How the data were processed

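Libraries for RNA sequencing were made from total RNA with the SMARTer HT and Nextera XT kits, and the submitters' processing notes name TopHat2 2.1.1, Cuffdiff 2.2.1 and GRCm38/mm10 without their roles. The values deposited by the authors are estimated counts for each gene symbol without normalization, and 21.1% of the nonzero ones were fractional. They were rounded here. Every column was matched to a library by name. Totals were 3557697 to 18793560 counts, so 3 counts, taken as a floor for counting error only, were 0.160 to 0.843 CPM. No replicates were copies of one library (chi-square per degree of freedom at least 7.71).

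Tests used edgeR 4.0.16 (quasi-likelihood, TMM, filterByExpr) in R 4.3.3, with the study's thresholds of FDR 0.1 and 2-fold. U, UN and UT shared a fit, BB and B a fit, and comparisons between organs a fit of all 5 groups. P-values are adjusted by Benjamini-Hochberg over all genes tested. In simulated UT and U data with the same spread in every group, 91.5% of 199 genes changed 4-fold were recovered among 15852, with 19 false calls. In the real libraries the spread, as edgeR's common dispersion, was 0.0348 in U and 0.200 in UT. Such unequal spread was not simulated. DESeq2 1.42.0, limma 3.58.1 (limma-trend and random effects), other filters, RNA integrity number (RIN) as covariate, the earlier range of library codes and leaving out libraries were alternatives. All 11 UT libraries were kept. The study's legends count 10 UT libraries without naming them. Levels, correlations and sequences were computed in Python 3.11.15.

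Libraries with the same mouse number came from 1 animal, which gives the pairing. After group means were taken away, the median correlation between such libraries was -0.02 for UT and UN, 0.11 for UT and BB and -0.06 for U and B. The 7 genes and the gene lists were chosen with earlier results of these data known. The genes named were the 7, the genes counted or most abundant in each list, and the 3 genes most like each by Pearson's r among genes with at least 1 CPM in 3 libraries. Ivl, Sprr1a, Lor, Krt14, Trp63, Upk1b and Upk1a were named for their roles or as ends of a range after their values were seen. One epithelial marker is not reported here and was left out of the sums.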

Additional observations from a re-analysis of the deposited data

Results flagged for a closer look

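In 21 combinations of keratin and group (U, UN and BB), 2 had a library apart from the rest by Dixon's criterion on log2(CPM + 1), which chance gives in about 1 of 20. Krt1 in UN 7 was 2.67 on this scale (5.38 CPM, with UN 6 next), and Krt10 in BB 7 was 8.80 (444 CPM against 71.5 CPM in BB 5).

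Library BT 6, the bladder left out of the main comparisons, lay above all 3 untreated bladders in all 7 keratins. It had 466 CPM of Krt6a, 151 CPM of Krt6b, 92.1 CPM of Krt16, 25.6 CPM of Krt1, 29.0 CPM of Krt10, 286 CPM of Krt13 and 656 CPM of Krt4. These are values of 1 library with no replicate, and all lie within the range of BB. The share of all genes that lay above all 3 untreated bladders in BT 6 was not counted, so the values are a description only.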

How the results depend on the processing

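Of the single-gene differences, 990 recomputed values stayed in direction and on the same side of the threshold, 24 passed it newly, 20 no longer passed it and 10 changed sign. The number of keratins called higher in UN against U was 6, and 3 with mouse as a random effect. In UT against UN it was 0, and 1 (Krt4) with DESeq2, with limma-trend or with mouse as a random effect, and 0 to 2 when single libraries were left out. With the RIN as a covariate Krt6b, Krt16 and Krt13 were at -0.28, -0.89 and -1.18. Leaving out single libraries moved Krt1 in UT against UN between -0.78 and 0.18 (without UN 7) and Krt10 between -0.38 (without UT 4) and 0.84. In U against B the number called lower was 1, and 4 with mouse as a replicate block or in a fit of U and B alone (added after seeing the data). It was 0 or 1 when single libraries were left out, and 0 without any of U 1L, U 1R, U 2L, U 2R, U 3R, B 1, B 2 or B 3. Krt6b there ran from -0.32 to 0.11 (without B 3). In UT against BB 4 were called lower, and 2 to 6 when single libraries were left out, with 2 without BB 7 and 6 without UT 2. Krt6a there ran from -1.48 to 0.14 (without BB 7). With BB 7 left out of the interaction (also added later), Krt6b, Krt13 and Krt4 changed sign, to 0.079, 0.12 and 0.22, with none called. Leaving out UN 6 and UT 9 together, added later too, changed no count of keratins called. Over all genes in UT against UN, 206 higher and 658 lower became 168 and 367 there. In UN against U, 1950 higher and 189 lower became 1656 and 327. The causes of these changes were not tested. In UT against UN the replicate block called 0 keratins, as did the fit without it. On TMM-scaled CPM, 1 (Krt10) to 3 (Krt6a and Krt16) of the 3 genes most like each keratin were the same. Counts of 0 to 9.5 behind Krt16, Krt6b and Krt1 in U limit their fold changes. Counts over all genes moved more than those of the keratins. In UT against UN, 206 were called higher, 411 with DESeq2, 46 with limma-trend, 129 with mouse as a random effect, 17 with the earlier codes, 1 with the replicate block, and 0 with edgeR on both groups alone or with the RIN as a covariate (2806 and 885 at an unadjusted p under 0.05). It was 580, 614 and 438 without UN 3, UN 7 or UT 9, 85 to 127 without UN 4, UN 9 or UT 4, and 4 to 12 without UN 2, UN 6, UT 2, UT 5L, UT 5R or UT 10. In UN against U, 1950 higher became 1193 with limma-trend and 1059 with mouse as a random effect. The 189 called lower there became 422 without UN 9, 97 without UN 3 and 408 with mouse as a random effect. In BB against B, 1274 became 4430 with DESeq2 and 2507 with the earlier codes. In U against B, 1669 lower became 1086 and 1104 without B 1 or B 3. In UT against BB, 4068 lower became 2711 with limma-trend, 460 with the replicate block and 577 without BB 1, BB 3 and BB 4. In the interaction, 1097 higher and 1335 lower became 898 and 2062 with DESeq2's scaling, 1130 and 3359 with DESeq2, 769 and 582 with limma-trend, 1013 and 783 with mouse as a random effect, and 754 and 424 without BB 1, BB 3 and BB 4.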
